A study of Gallus gallus with 4 samples.

Results

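The genes described here build and maintain the photoreceptor, the light-sensing neuron of the retina. They are RP1, FSCN2, TULP1, AIPL1, RD3, IMPG1 and IMPG2, grouped for what they are known to do. They were chosen with earlier results of these data known, and were matched on the gene symbols of the authors' transcript table. All 7 were found, among 18293 genes in all, and 13 of the 57401 listed transcripts belonged to them. A photoreceptor carries a stack of membrane discs, the outer segment, on a modified cilium, and the space around it is filled with a specialised extracellular matrix. Young photoreceptors express transcription factors before they grow discs, and the structural genes come on later. Several of these genes are known in people from inherited retinal dystrophies.

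Retinas of chick embryos at embryonic day 5 were explanted and electroporated with 2 plasmids, ThrbCRM1-GFP and UbiqC-Tdt. ThrbCRM1 is a cis-regulatory module of THRB, which encodes a nuclear receptor for thyroid hormone. After about 20 hours of culture in medium with fetal bovine serum the cells were sorted by FACS. ThrbCRM1 here names the GFP+/TDT+ cells and UbiqC the TDT+ cells, so both held electroporated cells. Each population had 2 polyA RNA libraries, A and B. Both populations were defined by signal from plasmids and not by a heritable mark.

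Library totals lay between 16087500 and 30959178 estimated counts in ThrbCRM1 and between 15673010 and 31659766 in UbiqC. The 7 retinal markers examined, RAX, SIX3, SIX6, PAX6, LHX2 and OTX2 among them, were all read in every library. EGFP followed the gate, with 9805 and 15147 TPM in libraries ThrbCRM1 A and B, against 150 and 156 TPM in UbiqC A and B. TdTomato, which both gates required, was at 3547 and 14505 TPM in libraries ThrbCRM1 A and B, against 2124 and 5637 TPM in UbiqC A and B, so it differed between libraries of a group and was lower in UbiqC for each letter. Markers of progenitors and glia (8 genes) summed to between 1048 and 1138 counts scaled to the library total (CPM) in ThrbCRM1, against 10139 and 10177 CPM in UbiqC, and 8 of 8 fell. Horizontal and amacrine markers (8 genes) summed to between 543 and 626 CPM in ThrbCRM1, against 123 and 159 CPM in UbiqC, with 7 that rose and PROX1 that fell. Ganglion cell markers (8 genes) summed to 62.8 and 94.4 CPM in ThrbCRM1, against 154 and 194 CPM in UbiqC, with 4 that fell. Pigment epithelium markers (9 genes) summed to 33.5 CPM in both ThrbCRM1 libraries, against 44.9 and 51.4 CPM in UbiqC, with 2 that rose, 2 that fell and SLC45A2 below 1 CPM throughout. Most of the UbiqC sum was MITF, with 12.6 and 14.0 CPM in ThrbCRM1, against 32.6 and 35.6 CPM in UbiqC. MITF and OCA2 fell, while TYRP1 and DCT rose, so the lower sum in ThrbCRM1 did not hold for the markers as a set. OCA2 and TYRP1 rested on few counts, with 16 and 5 of OCA2 in ThrbCRM1 and 0 and 6 of TYRP1 in UbiqC. Lens markers (8 genes) summed to 142 and 200 CPM in ThrbCRM1, against 60.1 and 73.8 CPM in UbiqC. Most of the lens sum was CRYBA4, with 135 and 191 CPM in ThrbCRM1, against 44.1 and 57.1 CPM in UbiqC, and of the 6 tested lens markers 2 rose and 3 fell, with CRYBB1 and MIP below 1 CPM. Endothelial and mesenchymal markers (8 genes) summed to 37.1 and 41.8 CPM in ThrbCRM1, against 188 and 249 CPM in UbiqC, with 5 that fell and with COL1A1 and TWIST1 below 1 CPM. KDR made up most of this UbiqC sum, at 157 and 211 CPM there and at 16.5 and 17.4 CPM in ThrbCRM1. PECAM1 leaned the other way without a call (log2 fold change 0.52, edgeR adjusted p = 0.130). The 3 measured blood and immune markers summed to 12.5 and 12.998 CPM in ThrbCRM1, against 5.95 and 8.47 CPM in UbiqC. Among them PTPRC rose, and TAL1, below 1 CPM in every library, fell. These marker sums moved with the populations, and their part in the results below was not tested. In bulk RNA, fewer cells of a type and less RNA per cell cannot be told apart.

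The question was how far cells marked by the ThrbCRM1 reporter already differed from the UbiqC cells in these genes. Such marked cells go on to make cones and horizontal cells. The 7 genes did not move together. RP1, IMPG2 and FSCN2 were 84-fold, 60-fold and 46-fold higher in ThrbCRM1. AIPL1 was 3.49-fold higher at a low level, TULP1 was barely read in either population, and RD3 and IMPG1 were lower in ThrbCRM1, IMPG1 by enough to pass the test. In edgeR's quasi-likelihood test with Benjamini-Hochberg adjustment over 16772 genes, 4 of the 7 rose and 1 fell. Of all tested genes 40.8% passed, 19.9% higher and 20.9% lower. The calls of AIPL1 and IMPG1 were lost in 4 and 8 of 13 alternatives. With the DESeq2 test 3 of the 7 rose and 0 fell. The median log2 fold change was 1.80 over the 7 genes and -0.01 over all tested genes. Differences of at least 8-fold in the upward direction were seen for 3 of the 7, against 1.75% of tested genes. Because the 7 genes were chosen with earlier results of these data known, these comparisons with all genes are a description only. Both ThrbCRM1 libraries lay on one side of both UbiqC libraries for 7 of 7, which is of little weight because 72.0% of tested genes did so in CPM and 71.9% in TPM. All 7 passed the filter on low counts, AIPL1 and TULP1 only through their ThrbCRM1 libraries. With no filter on low counts AIPL1 kept its call (edgeR adjusted p = 0.0217).

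**Figure D1:**
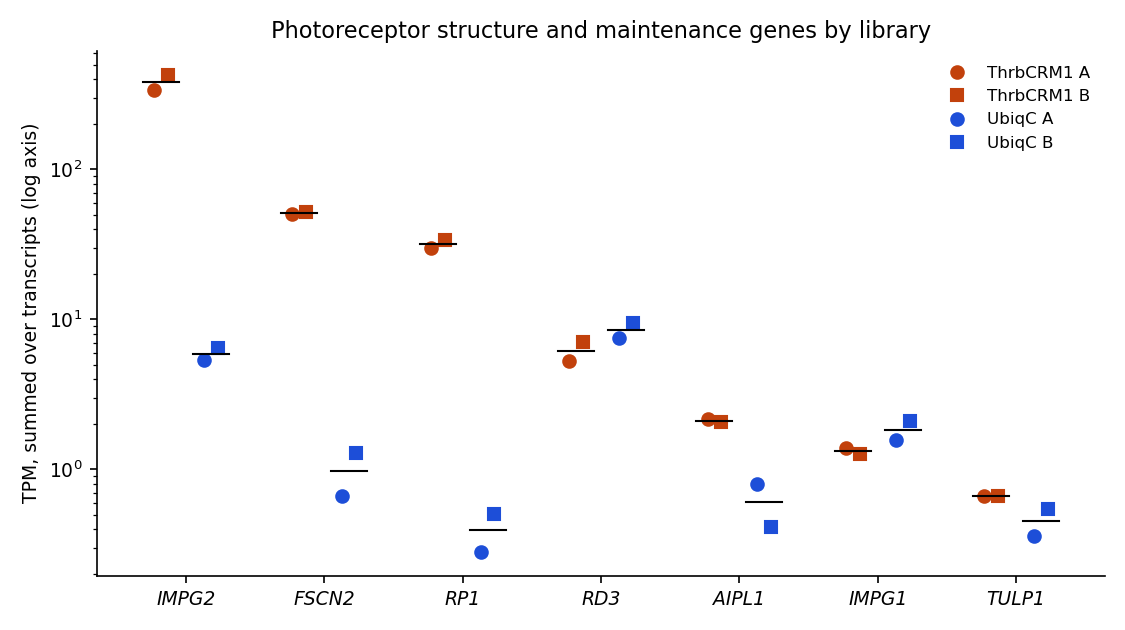
TPM of each gene, summed over its transcripts, in every library on a log axis, with ThrbCRM1 (orange) left of UbiqC (blue), library A as circles, library B as squares and the mean of 2 libraries as a bar. IMPG2, FSCN2 and RP1 stand far apart between the populations, while RD3 and IMPG1 lie slightly lower in ThrbCRM1 and TULP1 stays below 1 TPM throughout.

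RP1 encodes a microtubule-binding protein with doublecortin domains that sits on the axoneme of the photoreceptor cilium and is needed in mice for an orderly stack of discs. It stood at 30.0 and 34.1 TPM (a level corrected for transcript length and library total) in ThrbCRM1 A and B, against 0.282 and 0.508 TPM in UbiqC A and B. The UbiqC values rested on 13 and 40 estimated counts, with exact Poisson intervals (95%, counting error only) of 6.92 to 22.2 and 28.6 to 54.5. The lowest ThrbCRM1 library was thus many times above the highest UbiqC library. The log2 fold change was 6.38 ± 0.18 (SE, edgeR adjusted p = 1.4e-05), ranking 31st of the tested genes from the top.

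FSCN2 encodes the retinal fascin, a protein that bundles actin filaments and acts where new discs form. Its level was 50.6 and 52.1 TPM in libraries ThrbCRM1 A and B, against 0.665 and 1.28 TPM in UbiqC A and B. The ThrbCRM1 libraries nearly coincided and lay far above both UbiqC libraries, which rested on 8 and 30 estimated counts, with Poisson intervals (95%) of 3.45 to 15.8 and 20.2 to 42.8. The log2 fold change was 5.54 ± 0.21 (SE, edgeR adjusted p = 2.0e-05).

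IMPG2 encodes a proteoglycan of the interphotoreceptor matrix that is anchored in the photoreceptor membrane. It was read at 340 and 429 TPM in libraries ThrbCRM1 A and B, against 5.35 and 6.49 TPM in UbiqC A and B. Its mean level placed it 302nd of 18293 genes in ThrbCRM1 and 10522nd in UbiqC. The counts behind these levels were 35109 and 22044 in ThrbCRM1, against 318 and 690 in UbiqC, so counting error was small. The log2 fold change was 5.91 ± 0.14 (SE, edgeR adjusted p = 1.4e-05). The calls of RP1, FSCN2 and IMPG2 held under all 13 alternatives, including each library left out in turn.

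The UbiqC levels of these 3 genes were set, as a share of ThrbCRM1, beside that of the sorted reporter. For RP1, TPM in UbiqC came to 0.940% of ThrbCRM1 for letter A and 1.49% for letter B. The same shares were 1.57% and 1.51% for IMPG2 and 1.31% and 2.46% for FSCN2. For EGFP they were 1.53% and 1.03%. The shares of the 3 genes, from 0.940% to 2.46%, thus lay on both sides of those of the reporter. The letters are not labelled as shared cultures, so each share sets 1 library against 1 by letter alone, and no order between genes and reporter is drawn from them. ThrbCRM1-marked cells or their RNA in the UbiqC gate, and RNA made by UbiqC cells themselves, cannot be told apart for these genes.

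AIPL1 encodes a co-chaperone that works with HSP90 to fold the phosphodiesterase of phototransduction. It stood at 2.16 and 2.08 TPM in libraries ThrbCRM1 A and B, against 0.805 and 0.414 TPM in UbiqC A and B. Counts were 54 and 27 in ThrbCRM1, against 11 and 11 in UbiqC, whose Poisson interval (95%) ran from 5.49 to 19.7. The groups did not overlap, and the gene rose by a log2 fold change of 1.80 ± 0.44 (SE, edgeR adjusted p = 0.0196). That call was lost without ThrbCRM1 A (edgeR adjusted p = 0.111), without ThrbCRM1 B (0.0685), without UbiqC B (0.0834, log2 fold change 1.31) and with the DESeq2 test (0.0612), while its direction held in all 13 alternatives.

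TULP1 encodes a tubby-like protein that takes part in protein transport to the outer segment. It was listed at 0.669 and 0.666 TPM in libraries ThrbCRM1 A and B, against 0.358 and 0.548 TPM in UbiqC A and B. These levels came from 20 and 10 counts in ThrbCRM1, against 6 and 17 in UbiqC. The Poisson intervals (95%) of the counts ran from 4.80 to 30.9 in ThrbCRM1 and from 2.20 to 27.2 in UbiqC. The log2 fold change of 0.44 ± 0.45 (SE, edgeR adjusted p = 0.485) did not pass the test, so no difference was detectable at this depth.

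RD3 encodes a small protein that binds and inhibits retinal guanylate cyclase and helps bring it to the outer segment. It was the gene of highest TPM among the 7 in UbiqC. It stood at 5.28 and 7.09 TPM in libraries ThrbCRM1 A and B, against 7.47 and 9.41 TPM in UbiqC A and B. The ranges stayed apart by a narrow margin, since ThrbCRM1 B and UbiqC A lay closer to each other than to the other library of their own group. The log2 fold change of -0.53 ± 0.19 (SE, edgeR adjusted p = 0.0695) missed the threshold. Letters are not labelled as shared cultures. A fit with the letter as a replicate block called 8375 of 16772 genes, against 6839 without the block. In it, the log2 fold change of RD3 was -0.52 and passed (edgeR adjusted p = 0.00527). Without ThrbCRM1 B it passed (edgeR adjusted p = 0.0410, log2 fold change -0.77), and without ThrbCRM1 A it lay at -0.30.

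IMPG1 encodes the other interphotoreceptor matrix proteoglycan, a secreted one. It stood at 1.39 and 1.27 TPM in libraries ThrbCRM1 A and B, against 1.56 and 2.10 TPM in UbiqC A and B. On the count scale these were 134 and 60 counts in ThrbCRM1, against 107 and 228 in UbiqC, which is 4.33 and 3.84 CPM in ThrbCRM1 and 6.81 and 7.25 CPM in UbiqC. The gene fell by 0.78 ± 0.18 on the log2 scale (SE, edgeR adjusted p = 0.0177). The call depended on the scale and on single libraries: it was lost with transcript length offsets (log2 fold change -0.52, edgeR adjusted p = 0.0999), with limma on log2(TPM + 1) (-0.28, adjusted p = 0.250), with the DESeq2 test (adjusted p = 0.0637), and without ThrbCRM1 A (0.0666), ThrbCRM1 B (0.0862) or UbiqC B (0.0640). Every alternative kept the sign.

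**Figure D2:**
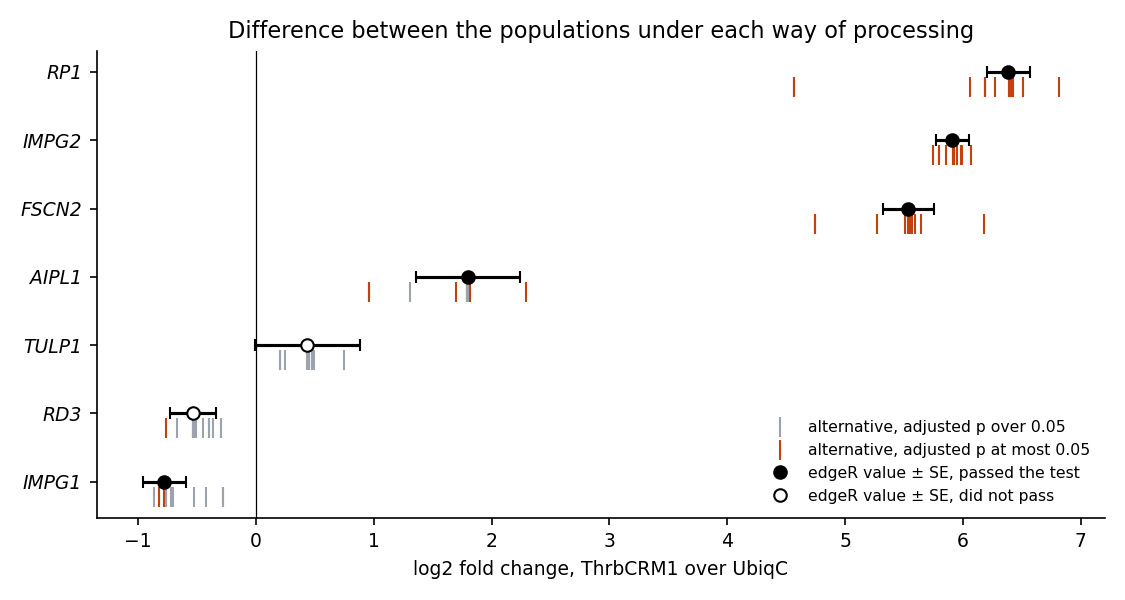
Log2 fold change of each gene, ThrbCRM1 over UbiqC, from edgeR with its standard error (black; filled where the adjusted p was at most 0.05), and its value under each alternative as a tick below (orange where that adjusted p was at most 0.05, grey otherwise). Ticks from limma are on the log2(TPM + pseudocount) scale, which pulls low genes towards 0. RP1, IMPG2 and FSCN2 stay at 4.57 or above throughout. The ticks of IMPG1, AIPL1 and RD3 fall on both sides of the threshold on adjusted p.

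In TPM, the order of levels in ThrbCRM1 was IMPG2, FSCN2, RP1, RD3, AIPL1, IMPG1 and TULP1, with no overlap between neighbours over the 2 libraries. In UbiqC the order was RD3, IMPG2, IMPG1, FSCN2, AIPL1, TULP1 and RP1. There the ranges of FSCN2 and AIPL1, of AIPL1 and TULP1, and of TULP1 and RP1 overlapped, so these neighbours could not be put in order. RP1 thus followed IMPG2 and FSCN2 in ThrbCRM1 and had the lowest mean in UbiqC.

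The authors' deposited table, made with sleuth, gives effects on a natural log scale that are negative where ThrbCRM1 is higher. In it RP1 had an effect of -4.36 (q = 1.1e-52), IMPG2 of -4.12 (q = 5.3e-157), FSCN2 of -3.93 (q = 5.6e-37) and AIPL1 of -1.21 (q = 0.00265). The q-values of IMPG1 (0.0523), RD3 (0.124) and TULP1 (0.369) in the authors' deposited table lay above 0.05. There, 39.9% of 18295 genes had q at or below 0.05, and it was made from the same 4 libraries.

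Annotated transcripts were examined next, with the caution that kallisto divides reads between transcripts of a gene by their shared sequence. The transcript test was weaker than the gene test: 6.01% of 32759 transcripts passed, 3.08% higher and 2.93% lower. Of the 13 transcripts of the 7 genes, 5 passed, all higher in ThrbCRM1: both of RP1, the FSCN2 transcript and 2 of the 3 of IMPG2. Leaving out any 1 library left 0 of between 33717 and 36767 transcripts past the edgeR test, with an unadjusted p below 0.05 for between 5822 and 7529, while the DESeq2 test on all 4 libraries called 8556 transcripts and 6 of the 13.

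RP1 was read from a long transcript of 6820 bases and a short one of 1551 bases. The long form was at 23.2 and 26.6 TPM in libraries ThrbCRM1 A and B, against 0.204 and 0.305 TPM in UbiqC A and B. The short form was at 6.89 and 7.53 TPM in ThrbCRM1, against 0.0788 and 0.203 TPM in UbiqC. The short form made up 22.9% and 22.1% of the gene's TPM in ThrbCRM1, against 27.9% and 39.9% in UbiqC, where it rested on 1 and 5 counts. Log2 fold changes were 6.48 ± 0.25 (SE, edgeR adjusted p = 0.0159) for the long form and 5.47 ± 0.65 (SE, edgeR adjusted p = 0.0432) for the short form, and the difference between them was not tested.

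IMPG2 was spread over coding transcripts of 7575 and 4857 bases and a non-coding entry of 7397 bases. The 7575-base form was at 190 and 174 TPM in libraries ThrbCRM1 A and B, against 3.95 and 3.52 TPM in UbiqC A and B (log2 fold change 5.52 ± 0.12, edgeR adjusted p = 0.0159). The 4857-base form was at 130 and 205 TPM in ThrbCRM1, against 1.40 and 2.97 TPM in UbiqC (6.14 ± 0.53, edgeR adjusted p = 0.0297). Which of the coding forms was higher differed between the ThrbCRM1 libraries. The non-coding entry held 2388 and 3050 estimated counts in ThrbCRM1 and was listed at 0 in both UbiqC libraries. Taking 3 counts per library as the limit that a count of 0 allows, its share of reads in ThrbCRM1 was at least 405-fold higher. That limit covers counting error only and not how kallisto divided reads between the IMPG2 forms, so it does not bound the true difference. The entry did not pass at the transcript level (edgeR adjusted p = 0.0560). With the DESeq2 test it did (adjusted p = 1.3e-13).

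IMPG1 had entries of 4933, 9805 and 10119 bases. The 4933-base form was at 1.06 and 1.08 TPM in libraries ThrbCRM1 A and B, against 0.616 and 1.47 TPM in UbiqC A and B, so the groups overlapped. The 9805-base form was at 0.224 and 0 TPM in ThrbCRM1, against 0.817 and 0.222 TPM in UbiqC. The share of the gene's TPM given to the 4933-base form was 76.3% and 84.8% in ThrbCRM1, against 39.4% and 70.1% in UbiqC. The libraries of a group disagreed on the split, and 0 of the 3 transcripts passed the edgeR test (adjusted p between 0.605 and 0.971, unadjusted p between 0.335 and 0.919).

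RD3 was read mainly from a 4176-base transcript, which held 90.1% and 100% of its TPM in ThrbCRM1, against 91.2% and 87.2% in UbiqC. FSCN2, TULP1 and AIPL1 had a single listed transcript each.

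**Figure D3:**
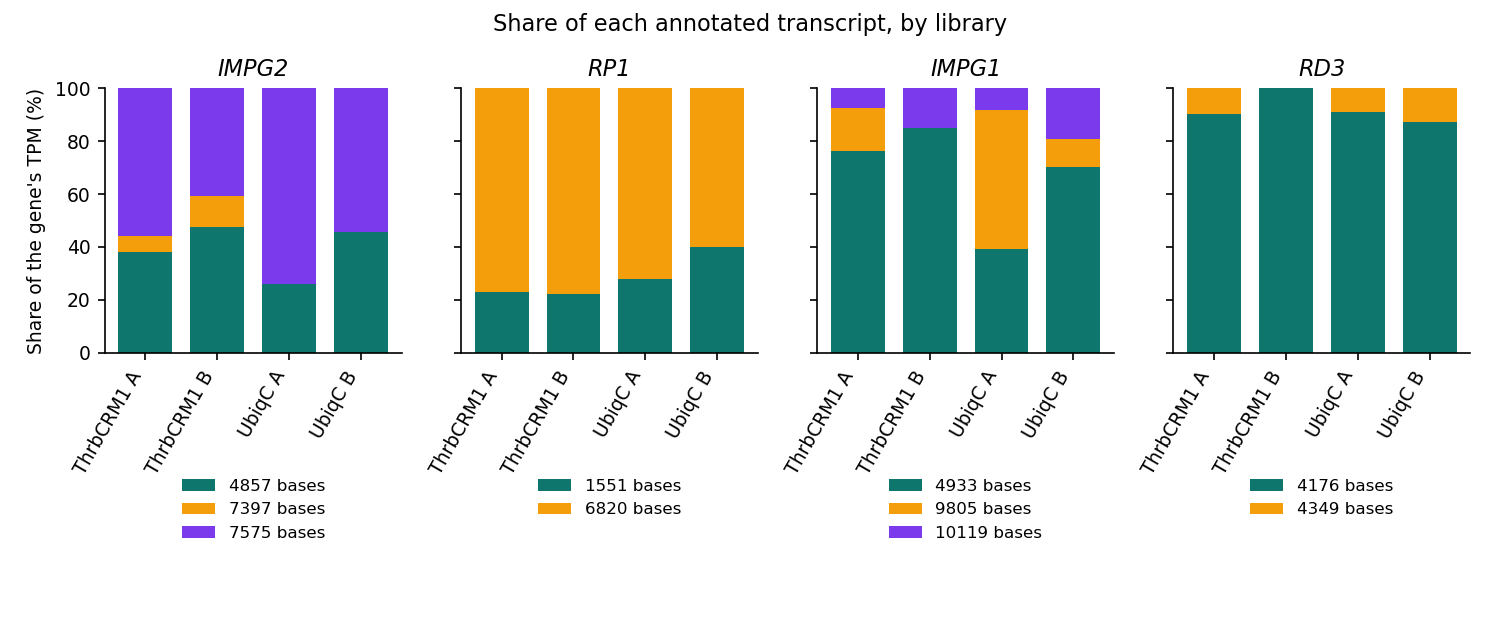
Share of each gene's TPM given to each annotated transcript, named by its length, in the 4 libraries, for the genes with more than one transcript. The long form leads for RP1 and the 4176-base form for RD3 in every library, the 7397-base IMPG2 entry is seen in ThrbCRM1 but not in UbiqC, and for IMPG1 the 9805-base form takes 52.2% in UbiqC A but 10.6% in UbiqC B.

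Of 11 tested relatives of these genes, 7 rose and 1 fell (edgeR), or 63.6% and 9.09%, against 19.9% and 20.9% of all tested genes. Their median log2 fold change was 0.67, against -0.01 for all tested genes. The relatives were chosen with earlier results of these data known. RP1L1, the photoreceptor relative of RP1, rose, with 3.89 and 3.81 TPM in libraries ThrbCRM1 A and B, against 0.126 and 0.0554 TPM in UbiqC A and B (log2 fold change 5.49 ± 0.33, edgeR adjusted p = 7.7e-05). Among other doublecortin-domain genes, named after their values were seen, DCX of migrating neurons fell (-0.92 ± 0.11, edgeR adjusted p = 0.00135), DCLK1, DCLK2 and DCLK3 rose by 1.04, 0.77 and 1.60, and DCDC2 did not pass (edgeR adjusted p = 0.750). FSCN1, the widely expressed fascin, stood at 133 and 120 TPM in ThrbCRM1 and at 137 and 114 TPM in UbiqC, with overlapping ranges (-0.05 ± 0.11, edgeR adjusted p = 0.777). FSCN2 therefore came to 0.381 and 0.434 of the FSCN1 level in ThrbCRM1, against 0.00486 and 0.0113 in UbiqC.

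Within the tubby family, TUB, TULP3 and TULP4 all exceeded TULP1 in TPM in every library. TUB was at 73.7 and 74.2 TPM in ThrbCRM1, against 40.4 and 43.3 TPM in UbiqC, and rose by 0.76 ± 0.07 on the log2 scale (edgeR adjusted p = 0.000321). TULP4 rose by 0.67 and TULP3, a factor of ciliary transport, by 0.57. RD3L is not analysed here.

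IMPG2 exceeded IMPG1 245-fold and 338-fold in TPM in libraries ThrbCRM1 A and B, against 3.42-fold and 3.09-fold in UbiqC A and B. With 2 libraries against 2, an exact two-sided permutation test of such a ratio cannot give a p below 0.333, the value reached for IMPG2 to IMPG1 and FSCN2 to FSCN1 (0.667 adjusted over 4 ratios). The ratios of RP1 to RP1L1 and of TULP1 to TUB overlapped between the populations (exact permutation p = 1).

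**Figure D4:**
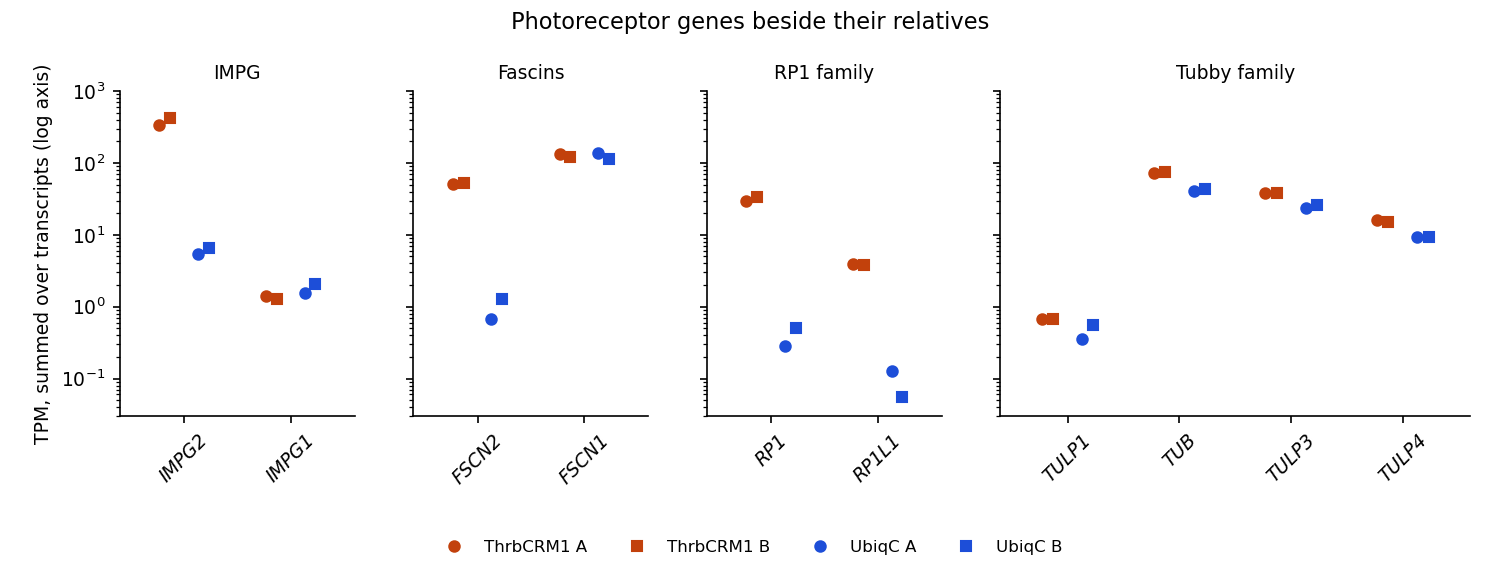
TPM of IMPG2, IMPG1, FSCN2, RP1 and TULP1 and of relatives in each library on a log axis, ThrbCRM1 (orange) left of UbiqC (blue), circles for A and squares for B. FSCN2, IMPG2, RP1 and RP1L1 lie higher in ThrbCRM1, the FSCN1 libraries of the populations overlap, and IMPG1 lies slightly lower in ThrbCRM1.

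Other genes with photoreceptor roles were grouped into 6 lists around the functions of these 7 genes. Of their 73 tested genes, 22 passed upward and 13 downward (edgeR), or 30.1% and 17.8%, against 19.9% and 20.9% of all tested genes. Their median log2 fold change was 0.14, against -0.01 for all tested genes. Without ThrbCRM1 A the number that fell was 4, and the number that rose 20, in a fit that called fewer genes in all (1956 lower and 1887 higher of 16506). The lists were chosen with earlier results of these data known.

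Of 5 genes of the outer segment discs, 4 rose and ROM1, named after its value was seen, did not pass (edgeR adjusted p = 0.694). ABCA4, a lipid and retinoid transporter of disc rims, was at 5.70 and 6.44 TPM in ThrbCRM1, against 1.75 and 1.72 TPM in UbiqC (log2 fold change 1.72, edgeR adjusted p = 0.000254). PROM1, a membrane protein of nascent discs that other cells also make, rose by 0.80, CDHR1, a cadherin at the base of the outer segment, by 2.56, and PRPH2, a disc rim protein named after its value was seen, by 2.07. CDHR1 and PRPH2 were below 1 TPM in every library, with 1 and 7 counts of CDHR1 and 2 and 4 of PRPH2 in UbiqC. Both passed the filter on low counts only through ThrbCRM1, where they were higher, so they add little to the list's count. The filter at 1 CPM in 2 libraries dropped both from the test. With no filter on low counts the number that rose was 4. The number that rose was 2 without ThrbCRM1 A, without ThrbCRM1 B, without UbiqC A, with the filter at 1 CPM and with the DESeq2 test.

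Among 24 genes of the photoreceptor cilium, RP1L1 included, 6 rose and 6 fell, with a median of -0.08. MAK, a kinase that limits the length of the photoreceptor cilium in mice, was at 24.9 and 26.3 TPM in ThrbCRM1, against 1.496 and 1.56 TPM in UbiqC (log2 fold change 3.94 ± 0.12, edgeR adjusted p = 1.4e-05). NPHP4, a protein of the ciliary transition zone, was at 28.9 and 29.4 TPM in ThrbCRM1, against 11.2 and 10.9 TPM in UbiqC (1.32). The number that fell was 2 without ThrbCRM1 A and 3 without ThrbCRM1 B, and limma on log2(TPM + 1) gave 3.

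Among 17 genes that carry proteins to the outer segment or belong to the BBSome, a coat complex of ciliary membranes, 4 rose and 4 fell, with a median of -0.03. UNC119, which carries lipid-modified proteins, was at 58.3 and 55.3 TPM in ThrbCRM1, against 13.3 and 13.2 TPM in UbiqC (log2 fold change 2.04 ± 0.07). TTC8, a BBSome subunit, was at 119 and 127 TPM in ThrbCRM1, against 18.6 and 16.3 TPM in UbiqC (2.73 ± 0.11), and BBS2, another, rose by 0.64. Their edgeR adjusted p-values were at most 0.00376. REEP6 also rose, and PDE6D, BBS7, BBS9 and BBS4 fell, named after their values were seen. Without ThrbCRM1 A the number that fell was 0 in edgeR, with an unadjusted p below 0.05 for 3 (the DESeq2 test on all libraries called 3).

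Among 9 tested clients and partners of AIPL1 and RD3, 2 rose and 1 fell, with a median of 0.22. PDE6B, a catalytic subunit of rod phosphodiesterase, was at 27.04 and 32.9 TPM in ThrbCRM1, against 0.524 and 0.744 TPM in UbiqC (log2 fold change 5.44 ± 0.19, edgeR adjusted p = 1.6e-05). PDE6H, the inhibitory subunit of the cone enzyme, was at 84.5 and 138 TPM in ThrbCRM1, against 1.17 and 3.23 TPM in UbiqC (5.29 ± 0.38, edgeR adjusted p = 0.000162). HSP90AB1, the constitutive HSP90, fell by 0.20 on the log2 scale (edgeR adjusted p = 0.0463), a call that was lost without ThrbCRM1 A, without UbiqC A, without UbiqC B, with DESeq2 size factors and without a filter on low counts. PDE6C, the cone catalytic subunit, named after its value was seen, was at 0.970 and 0.891 TPM in ThrbCRM1, against 0.653 and 0.0175 TPM in UbiqC, and did not pass (1.56 ± 1.07, edgeR adjusted p = 0.297). AIPL1 itself thus stood below PDE6B in ThrbCRM1 in TPM, and above it in UbiqC A but not in UbiqC B. GUCY2D and GUCY2F, the cyclases that RD3 binds, are not analysed here.

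Among 9 genes of the interphotoreceptor matrix other than IMPG1 and IMPG2, 2 rose and 1 fell, with a median of -0.34. RBP3, the retinoid carrier of that matrix, was at 99.9 and 149 TPM in ThrbCRM1, against 1.38 and 1.39 TPM in UbiqC (log2 fold change 6.43 ± 0.27, edgeR adjusted p = 2.4e-05). TIMP3, a metalloproteinase inhibitor abundant in the membrane under the pigment epithelium, fell by 1.96 (edgeR adjusted p = 0.00137). The number that rose was 1 without ThrbCRM1 B, without UbiqC B and with the filter at 1 CPM.

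Among 9 genes of photoreceptor survival and metabolism, 4 rose and 1 fell, with a median of 0.79. CERKL, a protective gene mutated in retinal dystrophy, was at 59.9 and 76.7 TPM in ThrbCRM1, against 6.13 and 6.01 TPM in UbiqC (log2 fold change 3.39 ± 0.16, edgeR adjusted p = 3.2e-05). NXNL1, which encodes a cone viability factor in mice, rose by 2.55 and CRB1, an apical polarity gene, by 1.01. RDH12, a retinol dehydrogenase, fell (-0.52, edgeR adjusted p = 0.00162), and CACNA2D4, a calcium channel subunit, rose by 2.06; both were named after their values were seen.

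**Figure D5:**
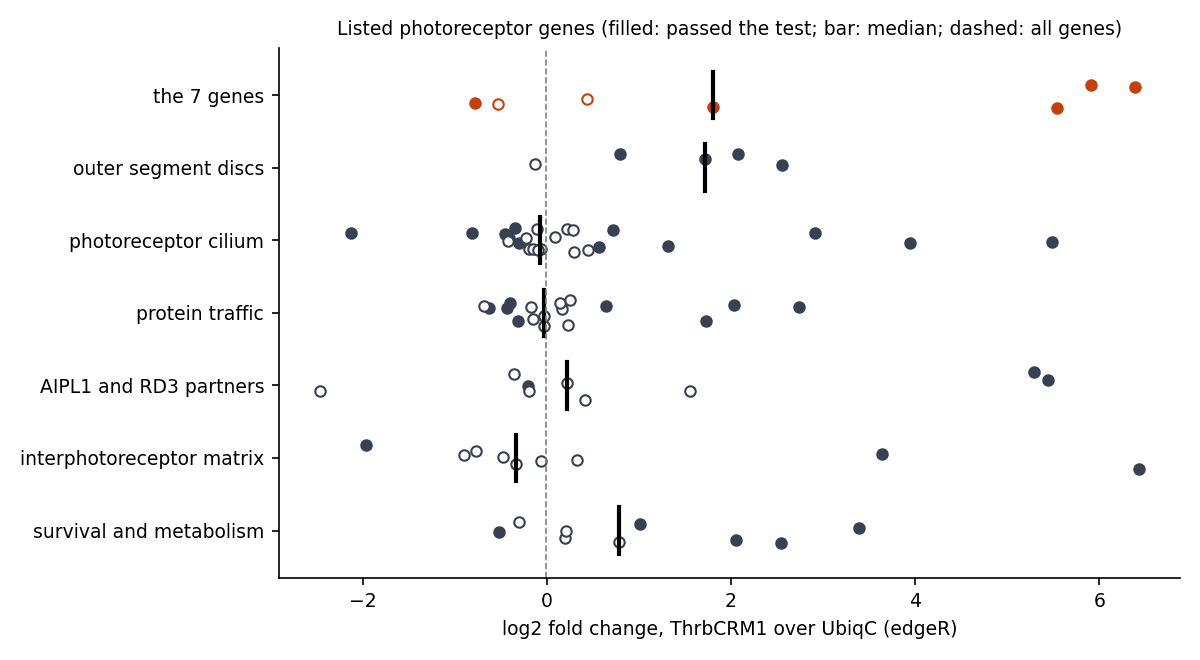
Log2 fold change from edgeR of the 7 genes (orange) and of each tested gene of the 6 lists (dark), filled where the adjusted p was at most 0.05, with the median of each list as a bar and that of all tested genes as a dashed line. The medians of the disc and survival genes, 1.72 and 0.79, lie to the right of the dashed line, and in the partner and matrix lists 2 genes each lie far to the right of the rest.

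For each of the genes that passed the test, the closest genes by level and pattern were found by Euclidean distance in log2(CPM + 0.5) over the 4 libraries, among symbol-bearing genes with a mean of at least 1 CPM, as a description. RXRG, a nuclear receptor of cones, was the nearest to IMPG2 (distance 0.41), with 1352 and 1644 CPM in ThrbCRM1, against 18.5 and 19.1 CPM in UbiqC. THRB, the gene whose element marked the sort, was the next (distance 0.75). PDE6B (0.82) and the homeobox gene ISL2 (0.92) were nearest to RP1, and FIBCD1 (0.54) and the homeobox gene DMBX1 (0.79) to FSCN2. HTR7L (0.11) and SPON2 (0.18) were nearest to AIPL1, and SLC26A11 (0.13) and SCNN1B (0.18) to IMPG1, at levels where many genes have similar values. OTX2, a transcription factor needed for photoreceptors, had 1091 and 1294 CPM in ThrbCRM1, against 60.6 and 58.4 CPM in UbiqC.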

How the data were processed

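The 4 libraries were grouped by the population in their titles. Per the submitters' processing notes, kallisto, sleuth and galGal5 were used; their versions are not given in the sources used here. For each transcript the authors deposited expected counts, TPM and lengths (other values, in bases). The authors' deposited comparison adds p-values, q-values and natural log effects. Gene names came from the authors' table (35667 of 57401 transcripts named). Estimated counts and TPM were summed by gene, with EGFP and TdTomato left out, which kept between 98.3% and 99.7% of counts, and sums of counts were rounded. No galGal5 annotation was at hand, so no coordinates are given.

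Tests ran over all genes or all transcripts in edgeR 4.0.16 under R 4.3.3: TMM factors (0.988 to 1.007), filterByExpr with its minimum count of 10, a quasi-likelihood F test, and adjustment by Benjamini-Hochberg with a threshold of 0.05. A gene could pass filterByExpr through the libraries of a single group. The fit had 2 residual degrees of freedom. The common biological coefficient of variation was 10.6% for genes and 64.7% for transcripts. A standard error is the log2 fold change over the square root of its F. DESeq2 1.42.0 and limma 3.58.1 served as alternatives, and the edgeR step was tested on simulated data. Chi-square over its degrees of freedom between same-group libraries was 8.14 in ThrbCRM1 and 9.66 in UbiqC, above counting noise. Whether A and B come from separate cultures is not labelled, so p-values reflect only the spread between these libraries, possibly technical. The 7 genes and all lists were chosen with earlier results of these data known. Named genes were the 7, their relatives, OTX2 and RXRG, per list the 3 genes of smallest edgeR p, and the 2 nearest genes of each gene that passed; some genes under this rule are not reported here. Tables and plots were made in Python (pandas 2.3.3, numpy 2.4.6, scipy 1.17.1, matplotlib 3.10.9).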

Additional observations from a re-analysis of the deposited data

Results flagged for a closer look

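EGFP, which lay outside the gene comparison, averaged 12476 TPM in the ThrbCRM1 libraries, above the 150 and 156 TPM of the UbiqC libraries. The ThrbCRM1 cells were sorted as GFP+, so this direction was set by the gate. The difference was not tested.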

How the results depend on the processing

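RP1, IMPG2 and FSCN2 kept direction and call under all 13 alternatives, and TULP1 stayed uncalled in the 12 that tested it (the filter at 1 CPM dropped it). AIPL1 lost its call in 4 of the 13, the DESeq2 test (log2 fold change 1.79) and the left-out libraries named in its paragraph above. IMPG1 lost its call in 8 of the 13. These included the DESeq2 test (-0.76), length offsets (-0.52), limma on log2(TPM + 1) with and without a filter (-0.28 each) and on log2(TPM + 0.1) (-0.42). The rest were the left-out libraries named in its paragraph above. With the letter as a replicate block RD3 passed (-0.52, edgeR adjusted p = 0.00527), in a fit that called 8375 of 16772 genes, against 6839 without the block. No call of another of the 7 genes changed. For transcripts, the block fit called 0 of all 32759 (7373 at an unadjusted p below 0.05). The 13 transcripts were thus uncalled like all others (6 at an unadjusted p below 0.05), while the DESeq2 test called 6 of them. Over the tested genes, the difference between libraries A and B in ThrbCRM1 correlated at 0.234 with that in UbiqC. With only 2 letters, and no label of shared cultures, the letters were not taken as pairs. With 1 library left out, the lone library is assumed to vary like the other group. Left-out libraries gave between 1.31 and 2.29 for AIPL1, -0.87 and -0.70 for IMPG1, and -0.77 and -0.30 for RD3. They gave between 1887 and 3137 genes higher in ThrbCRM1 and between 1956 and 3054 lower, between 4 and 9 listed genes lower, and 0 of the 13 transcripts (6 at an unadjusted p below 0.05). The 4933-base IMPG1 transcript, never called, changed sign with the replicate block (0.065), limma on log2(TPM + 1) with and without a filter (0.049 each) and limma on log2(TPM + 0.1) (0.14), and ranged from -0.55 to 0.69 over left-out libraries. The 10119-base one ranged from -1.51 to 0.15. Except where stated, the cause was not tested. TULP1 and AIPL1 rest on between 6 and 54 counts a library.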
